A study of Mus musculus with 10 samples.

Results

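B lineage genes were followed in mouse bone marrow cultures through 35 listed genes, taken from the probe sets of a whole-transcript array that carry 1 of these symbols and no other. Of the 35, 33 were measured, out of 19938 genes named on the array, and each of the 33 was read by 1 probe set. They were read here as 11 genes of B cell precursors, 12 genes used along most of the lineage (pan B) and 10 genes of mature B cells. Faim3 and Erg1 had no probe set of that symbol alone. RefSeq lists Faim3 as a synonym of Fcmr, whose values are given separately and are not counted among the members.

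Whole marrow from the long bones of male Swiss mice aged 4 to 6 weeks was grown in αMEM; both groups had fetal calf serum and calcitriol, the active form of vitamin D. The adiponectin group received recombinant mouse adiponectin at 5 µg/ml, the control group vehicle, and 1 culture of each group was taken at 4, 10, 24, 72 and 120 h, so that there were 5 arrays a group and 10 in all. The series' title reports evidence that lipopolysaccharide contaminated the material, so the adiponectin group is read here as cells given this preparation and not as an effect of adiponectin alone. Whether each culture had its own animal is not stated in the labels, so p-values reflect the spread among these cultures alone, and that spread may be technical.

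B cells form in marrow from precursors that depend on interleukin 7, rearrange their immunoglobulin genes with the Rag1 and Rag2 recombinase and test the new heavy chain in a receptor completed by a surrogate light chain. That receptor and its mature successor signal through the paired chains Cd79a and Cd79b, under transcription factors such as Ebf1, Tcf3 (E2A) and Pax5. Cells that leave the precursor stages shut off the recombinase and the surrogate light chain and gain receptors such as Ms4a1 (CD20), Cd22 and the BAFF receptor Tnfrsf13c.

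The deposited values are log2 levels, and the median over named genes lay between 8.27 and 8.48 on the 10 arrays. Levels were tested with limma over all 19938 named genes, with Benjamini-Hochberg adjusted p under 0.05 as the threshold. Markers of other cells gave the setting: the mean level of 12 neutrophil markers went from 13.15 to 10.11 in control cultures between 4 and 120 h, while that of 12 macrophage markers stayed between 12.44 and 12.68 and that of 13 T cell markers between 7.85 and 8.04. The array values are relative within each sample of mixed cells, so fewer B lineage cells and less RNA per cell cannot be told apart.

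The promoters of 5 members are shown because they differ in what happened to their genes: the first 4 belong to genes whose level fell in culture, and the last to Cd22, which had no called change over time. Each runs 5′ to 3′ on the gene's strand, from 250 bases before to 50 after the RefSeq start, in GRCm38.p6. Capitals mark matches to 3 motifs searched on both strands: the octamer ATGCAAAT bound by Oct factors with their coactivator Pou2af1, the E-box CAGGTG bound by E2A, and the palindrome TCCCNNGGGA bound by Ebf1. Vpreb3 lies at chr10:75948050-75948349 on the plus strand, Igll1 at chr16:16863936-16864235 on the minus strand, Rag1 at chr2:101649483-101649782 on the minus strand, Cd79a at chr7:24897247-24897546 on the plus strand and Cd22 at chr7:30878979-30879278 on the minus strand.
Vpreb3: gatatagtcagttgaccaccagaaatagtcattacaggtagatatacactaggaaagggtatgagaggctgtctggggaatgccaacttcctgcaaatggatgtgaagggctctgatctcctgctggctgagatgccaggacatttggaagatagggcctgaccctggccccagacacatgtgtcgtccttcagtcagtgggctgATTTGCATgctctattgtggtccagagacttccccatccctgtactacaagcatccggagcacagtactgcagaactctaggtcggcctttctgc
Igll1: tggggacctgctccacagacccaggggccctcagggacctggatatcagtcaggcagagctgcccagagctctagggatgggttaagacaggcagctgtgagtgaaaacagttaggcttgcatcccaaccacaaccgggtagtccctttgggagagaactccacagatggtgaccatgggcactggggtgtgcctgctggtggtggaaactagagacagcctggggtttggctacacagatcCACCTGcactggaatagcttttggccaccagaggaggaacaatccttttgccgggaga
Rag1: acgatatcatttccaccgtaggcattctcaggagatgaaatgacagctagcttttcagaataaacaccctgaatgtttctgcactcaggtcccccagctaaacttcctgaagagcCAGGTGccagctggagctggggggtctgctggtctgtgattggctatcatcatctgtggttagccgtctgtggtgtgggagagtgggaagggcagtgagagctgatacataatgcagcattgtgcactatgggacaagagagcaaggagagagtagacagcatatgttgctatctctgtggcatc
Cd79a: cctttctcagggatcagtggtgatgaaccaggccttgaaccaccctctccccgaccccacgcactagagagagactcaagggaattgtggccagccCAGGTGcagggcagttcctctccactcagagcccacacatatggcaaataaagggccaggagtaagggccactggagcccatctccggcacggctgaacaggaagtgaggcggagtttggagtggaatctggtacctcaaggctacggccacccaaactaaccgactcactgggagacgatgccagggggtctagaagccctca
Cd22: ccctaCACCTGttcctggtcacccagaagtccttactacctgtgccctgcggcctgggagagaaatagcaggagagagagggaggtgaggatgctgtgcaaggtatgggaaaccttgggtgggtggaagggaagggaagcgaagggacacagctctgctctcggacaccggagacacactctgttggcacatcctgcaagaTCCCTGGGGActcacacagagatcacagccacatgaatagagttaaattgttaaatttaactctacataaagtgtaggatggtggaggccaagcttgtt
The octamer of Vpreb3 reads on the minus strand relative to the gene and begins at position -45 from the start. The E-box of Igll1 begins at position -8, that of Cd79a at -154 and that of Rag1 at -135. Cd22 held both an E-box and the Ebf1 palindrome, the latter from position -49. Of the 33 members, 28 had a promoter entry, and 5 of these had more than 1. The E-box stood in at least 1 promoter of 15 of the 28 (53.6%), against 22.6% of 27025 genes with an entry. The octamer stood in 2, Vpreb3 and Blnk, against 1.97% of genes, and the palindrome in Cd22 alone, against 1.06% of genes. By promoters of this length, the shares over 32851 entries were 20.2% for the E-box, 1.74% for the octamer and 0.904% for the palindrome. The members had 43 entries, with the E-box in 21, the octamer in 2 and the palindrome in 1. Some of these entries overlap, as for Arpp21. A match describes the letters and is not a bound site.

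The B lineage genes that changed over culture time went down, in both arms. Straight-line slopes on log2 hours, in log2 units per doubling of time, had a median of -0.21 over the 33 members in control cultures, against 0.02 over all named genes, and of -0.21 with adiponectin, against -0.01. In control cultures 14 of the 33 fell and 0 rose, where 4.45% of all genes fell and 4.64% rose. With adiponectin 14 fell and 0 rose, where 3.46% of all genes fell and 4.15% rose. Both arms shared 13 of these genes: Cd37 was called in control cultures only and Arpp21 with adiponectin only, and neither difference passed a test of its own. The straight line leans on the late arrays. Without the 72 h pair 1 member kept a called fall in control cultures and 4 with adiponectin, without the 120 h pair 1 and 0, and without the 10 h pair 5 and 4. In that order, the falls called over all named genes went from 888 to 27, 17 and 617 in control cultures. With adiponectin they went from 689 to 50, 15 and 320. The loss without the 72 or 120 h pair was thus not particular to the members. Without the 10 h pair the members lost a larger part of their calls than all named genes did, in both arms. Lef1 was the only member called in control cultures under all 5 omissions.

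The times were therefore also compared in steps, a test added after the data were seen, in which the pair of arrays at 4 h was set against that at 24 h, the 24 h pair against that at 72 h and the 72 h pair against that at 120 h. The 10 h pair was the end of no step. Each pair holds 1 control and 1 adiponectin culture. Whatever the cultures of a time shared therefore counts as change over time, and the p-values of the steps leave out the spread between repeated cultures of a time. Between 4 and 24 h 0 of the 33 members fell by limma's adjusted p, where 0.145% of all genes did, while 12 (8 downward and 4 upward) had an unadjusted p under 0.05, as did 11.3% of all genes. Between 24 and 72 h 15 members fell, where 2.95% of all genes did, and between 72 and 120 h 11 fell, where 0.777% did. None rose in any step, where 0.396%, 1.50% and 0.376% of all genes did. Leaving out a pair at neither end of a step cannot change its estimate, only the spread it is judged by. The counts were then 15 to 16 and 11. The end pairs themselves could not be left out. In all, 19 members were called in at least 1 slope or step and 14 in none.

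**Figure D1:**
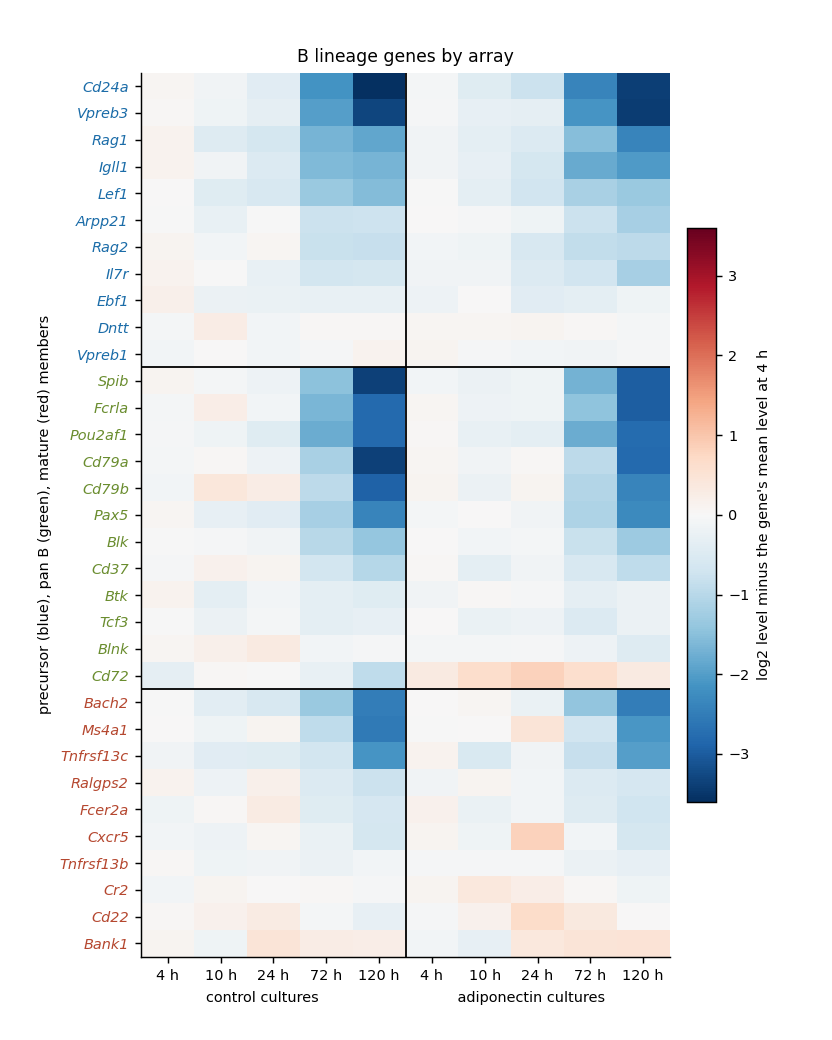
Log2 level of each of the 33 members on the 10 arrays, minus that gene's mean over the pair of arrays at 4 h, with control cultures left and adiponectin cultures right; colours run from blue (lower) to red (higher), and genes are ordered within each group by their slope. Blue deepens at 72 and 120 h in both arms for Cd24a, Vpreb3, Spib, Fcrla, Cd79a and Bach2, while Vpreb1, Dntt, Cr2 and Bank1 stay pale and Cd72 is redder in the adiponectin columns than in the control columns.

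Of the 11 precursor genes, 7 fell by slope in control cultures and 8 with adiponectin, with medians of -0.21 and -0.24. Of the surrogate light chain's parts, Igll1 was among the called genes and Vpreb1 was not. Igll1, its lambda5 part, read 10.42, 10.16, 9.78, 8.69 and 8.60 at 4, 10, 24, 72 and 120 h in control cultures and 10.15, 9.98, 9.65, 8.46 and 8.25 with adiponectin. Every later reading in each arm was below the one before it, and the slopes were -0.41 ± 0.05 and -0.42 ± 0.05 (SE, limma adjusted p = 0.00470 and 0.00332). Vpreb1, its V-like part, stayed between 7.47 and 7.71 over all 10 arrays and was called in no test. Vpreb1 has a close genomic copy, and how its probe set handles that copy is not given in the sources used here.

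Vpreb3, a pre-B cell protein related to the surrogate light chain that binds newly made receptor chains, had one of the deepest falls. It read 11.21, 11.01, 10.83, 9.18 and 7.84 in control cultures and 11.10, 10.87, 10.82, 9.02 and 7.73 with adiponectin. Both arms changed little up to 24 h beside the later drop and ended 10.3-fold below their 4 h reading, and no array at 72 or 120 h reached any earlier one. The steps were -0.33 ± 0.11 from 4 to 24 h (SE, limma adjusted p = 0.258), -1.73 ± 0.11 from 24 to 72 h (adjusted p = 1.98e-05) and -1.31 ± 0.11 from 72 to 120 h (adjusted p = 1.37e-04).

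The recombinase genes fell by slope in each arm, while the enzyme that adds untemplated bases at the joins had no called change. Rag1 read 9.49, 8.92, 8.73, 7.71 and 7.49 in control cultures and 9.25, 9.03, 8.89, 7.85 and 6.98 with adiponectin. Its slopes were -0.41 ± 0.06 and -0.44 ± 0.06 (SE, limma adjusted p = 0.00781 and 0.00528), a 4.00-fold and a 4.83-fold lower level at 120 than at 4 h. Rag2, its partner, read 6.23, 6.05, 6.21, 5.33 and 5.30 in control cultures and 6.05, 5.98, 5.55, 5.26 and 5.19 with adiponectin, so that the adiponectin culture of 24 h was already near the late level of both arms. Its slopes were -0.21 ± 0.04 and -0.19 ± 0.04 (limma adjusted p = 0.0186 and 0.0228), with no called step. Dntt, the terminal transferase, stayed between 6.47 and 6.83. Like Rag2, it lay on every array below the lower quartile of named genes (7.04 to 7.23), so a change may be missed.

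Il7r, the interleukin 7 receptor chain also carried by T cells, and Lef1, a transcription factor of early B and T cells, both fell by slope in each arm. Il7r read 12.17, 12.03, 11.79, 11.39 and 11.42 in control cultures and 11.92, 11.91, 11.56, 11.36 and 10.86 with adiponectin. It was called in no step, and its slopes were -0.17 ± 0.03 and -0.21 ± 0.03 (SE, limma adjusted p = 0.0170 and 0.00791). Lef1 read 9.23, 8.78, 8.62, 7.87 and 7.65 in control cultures and 9.18, 8.85, 8.52, 8.03 and 7.88 with adiponectin. Its slopes, -0.32 ± 0.03 and -0.27 ± 0.03, had the smallest adjusted p-values among the members (limma, 0.00124 and 0.00199), and it fell from 24 to 72 h by 0.62 ± 0.12 (adjusted p = 0.0153). Of the 13 T cell markers, 3 fell from 24 to 72 h and 0 rose: Lat by 1.71, Cd8b1 by 0.81 and Cd3d by 0.72 (limma adjusted p = 1.40e-04, 0.0345 and 0.0220). By slope 1 rose and 2 fell in control cultures, and 2 rose and 2 fell with adiponectin. Their part in these falls was not tested.

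Cd24a, the heat stable antigen of precursor B cells that many marrow cells also carry, had the largest fall of all members in control cultures. It read 12.48, 12.30, 12.00, 10.26 and 8.74 there and 12.35, 11.97, 11.65, 10.03 and 9.02 with adiponectin. The 120 h level was 13.4-fold below the 4 h level in control cultures and 10.0-fold below with adiponectin. The neutrophil markers moved the same way: 10 of the 12 fell from 24 to 72 h and 11 from 72 to 120 h, and their part in the fall of Cd24a was not tested. Arpp21, a regulator of RNA found in precursor lymphocytes, fell from 24 to 72 h by 0.70 ± 0.15 (SE, limma adjusted p = 0.0247) and by slope with adiponectin. Ebf1, the factor that commits cells to the lineage, read 11.35 in the 4 h control culture and between 10.77 and 11.19 on the other 9 arrays, with slopes of -0.08 ± 0.04 and -0.03 ± 0.04 that missed the threshold (limma adjusted p = 0.204 and 0.778). Ebf1 is also made by marrow stromal cells, and the ligands Cxcl12 and Kitl, described below, went up in the same cultures. The part of stromal cells in the level of Ebf1 was not tested.

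The pan B group had the steepest median slopes, -0.37 in control cultures and -0.34 with adiponectin. By slope 6 of its 12 genes fell in control cultures and 5 with adiponectin. Between 24 and 72 h 7 fell, and between 72 and 120 h 6. Cd79a, the receptor's signalling chain, read 12.22, 12.33, 12.11, 11.12 and 8.94 in control cultures and 12.36, 12.15, 12.34, 11.34 and 9.50 with adiponectin. Up to 24 h all 6 arrays lay within 12.11 to 12.36, and the drop came in the last steps, by 0.99 ± 0.16 from 24 to 72 h and by 2.01 ± 0.16 from 72 to 120 h (SE, limma adjusted p = 0.00402 and 8.77e-05). A straight line on log2 hours did not capture this: its slopes missed the threshold at a limma adjusted p of 0.0593 and 0.119. Cd79b, its partner, read 12.08, 12.60, 12.46, 11.24 and 9.29 in control cultures and 12.30, 11.97, 12.30, 11.14 and 9.81 with adiponectin, with steps of -1.19 ± 0.21 and -1.64 ± 0.21 over the same intervals (limma adjusted p = 0.00976 and 0.00297).

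The lineage's transcription factors split. Pax5, which holds cells to the B fate, read 10.81, 10.46, 10.35, 9.55 and 8.38 in control cultures and 10.68, 10.75, 10.63, 9.63 and 8.44 with adiponectin. Over both arms it fell in the late steps, by 0.90 ± 0.13 and 1.18 ± 0.13 (SE, limma adjusted p = 0.00247 and 9.68e-04), to levels 5.40-fold and 4.71-fold below those at 4 h. Pou2af1, the octamer coactivator, went from 10.96 to 8.20 in control cultures and from 11.05 to 8.23 with adiponectin. Spib, an Ets factor of B cells and of plasmacytoid dendritic cells, went from 11.91 to 8.45 and from 11.74 to 8.85, an 11.1-fold and a 7.40-fold lower level. Both genes fell by slope in each arm and in both late steps. Of 6 measured markers of these dendritic cells, 1 fell by slope in control cultures and 3 with adiponectin, and 0 rose in either. Siglech and Ccr9 went from 9.78 to 7.70 and from 9.77 to 7.65 in control cultures, while Pacsin1, Cox6a2 and Lair1 changed there by -0.37, -0.40 and -0.52. The part of dendritic cells in the fall of Spib was not tested. Tcf3, by contrast, stayed between 10.27 and 10.77 and was called in no test.

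Among the kinases and adaptors behind the receptor, Blk, a Src-family kinase of B cells, fell from 24 to 72 h by 0.80 ± 0.11 (SE, limma adjusted p = 0.00191). Btk, a kinase shared with myeloid cells, stayed between 10.14 and 10.70, and Blnk, the adaptor that links the receptor to phospholipase C, between 10.39 and 11.18. Fcrla, an intracellular Fc receptor-like protein of B cells, went from 10.76 to 8.03 in control cultures and from 10.91 to 7.86 with adiponectin, and fell in both late steps. Cd37, a tetraspanin, fell by slope in control cultures (-0.22 ± 0.06, limma adjusted p = 0.0416), and its slope with adiponectin was -0.17 ± 0.06 (adjusted p = 0.109).

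**Figure D2:**
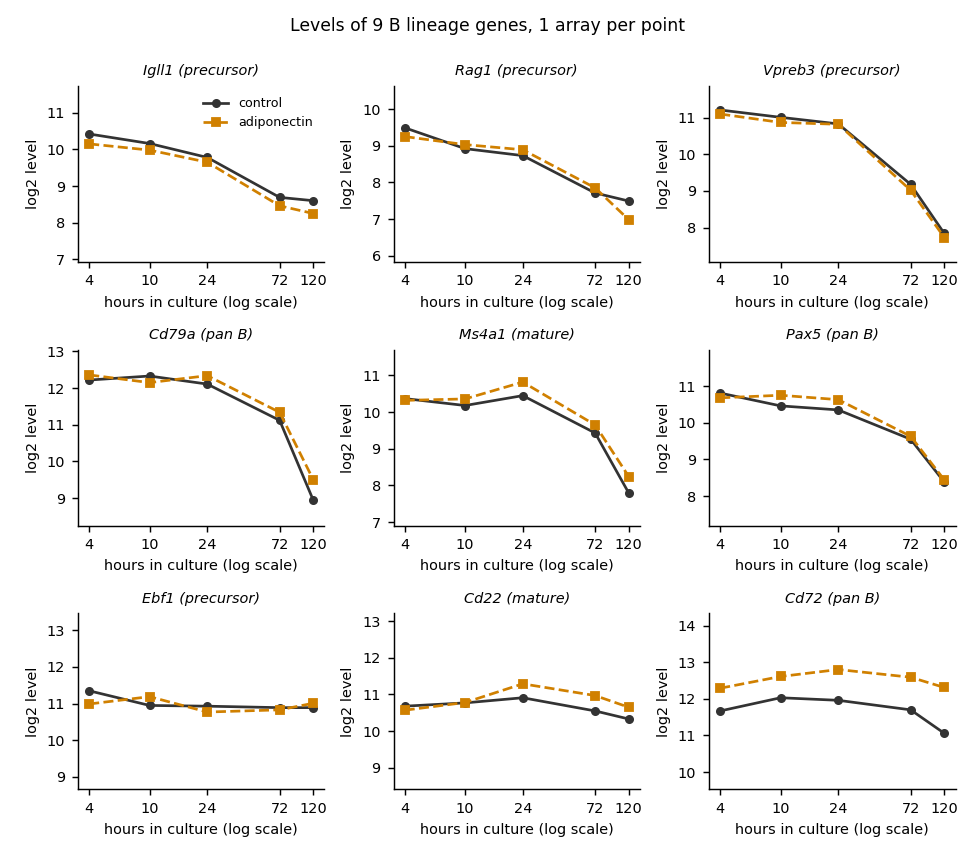
Log2 level of 9 members against hours in culture on a log axis, 1 array per point, with control cultures as circles and adiponectin cultures as squares; every panel spans the same number of log2 units. Igll1 and Rag1 go down across the whole course, Cd79a, Ms4a1 and Pax5 mostly after 24 h, Ebf1 and Cd22 have no called change, and Cd72 is higher with adiponectin in all 5 pairs.

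The mature group moved less on the median, with slopes of -0.09 in control cultures and -0.11 with adiponectin. By slope 1 of its 10 genes, Bach2, was called in each arm. Group medians here include dim probe sets: Rag2 and Dntt among precursor genes, Cr2 and Cxcr5 among mature genes. Ms4a1, the CD20 antigen, read 10.37, 10.18, 10.45, 9.43 and 7.79 in control cultures and 10.32, 10.36, 10.82, 9.65 and 8.24 with adiponectin. The 24 h reading was the highest of each arm and the 120 h reading the lowest. The steps were -1.10 ± 0.13 from 24 to 72 h and -1.52 ± 0.13 from 72 to 120 h (SE, limma adjusted p = 7.86e-04 and 2.02e-04). Bach2, a repressor that restrains plasma cell formation, read 10.48, 10.13, 9.91, 9.15 and 8.02 in control cultures and 10.52, 10.56, 10.27, 9.08 and 8.02 with adiponectin, a 5.51-fold and 5.67-fold lower level at the end (slopes -0.45 ± 0.10 and -0.50 ± 0.10, SE, limma adjusted p = 0.0206 and 0.0137). Tnfrsf13c, the BAFF receptor, read 11.50, 11.21, 11.18, 10.96 and 9.49 in control cultures and 11.73, 11.07, 11.48, 10.78 and 9.63 with adiponectin, and was called in the step from 72 to 120 h alone (-1.31 ± 0.14, limma adjusted p = 8.35e-04).

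The other 7 mature genes had no called slope or step. Cd22, an inhibitory receptor, lay between 10.33 and 11.29. Bank1, a scaffold protein of receptor signalling, lay between 8.94 and 9.72, with a positive slope with adiponectin of 0.15 ± 0.05 (SE, limma adjusted p = 0.0802) that passed the threshold under 2 other scalings of the arrays. Tnfrsf13b (TACI), a second receptor for BAFF, lay between 9.55 and 9.90. Cr2, the complement receptor of follicular and marginal zone cells, lay between 6.35 and 6.90. Cxcr5, the follicle homing receptor, lay between 6.18 and 7.66, and its highest value came from the 24 h adiponectin culture. Cr2 lay below the lower quartile of named genes (7.04 to 7.23) on every array. Cxcr5 did so on all but the 24 h adiponectin array, so a change of either gene may be missed. Fcer2a (CD23) lay between 7.07 and 8.08 and Ralgps2, an exchange factor for Ral proteins, between 7.85 and 8.80. Fcmr, the IgM Fc receptor, resembled Ms4a1 in its course: it read 10.95, 11.20, 11.25, 10.49 and 8.84 in control cultures and 11.45, 11.41, 11.86, 10.60 and 8.84 with adiponectin, with steps of -1.01 ± 0.15 and -1.70 ± 0.15 over the last intervals (limma adjusted p = 0.00356 and 2.48e-04).

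Precursor and mature genes were then set side by side, step by step. From 4 to 24 h the median step was -0.33 over the precursor genes and 0.12 over the mature genes, against 0.01 over all named genes. A negative estimate was found for 11 of 11 precursor genes, 3 of 10 mature genes and 9257 of the 19938 named genes. The 11 include Dntt at -0.01 ± 0.13 and Vpreb1 at -0.10 ± 0.12 (SE), and no member was called in this step. The early estimates of Igll1 (-0.57 ± 0.11), Lef1 (-0.63 ± 0.12) and Rag1 (-0.56 ± 0.17) missed the threshold (limma adjusted p = 0.0580, 0.0519 and 0.188). Igll1 and Lef1 passed it under 3 other settings. From 24 to 72 h the medians were -0.62, -0.85 and -0.50 for precursor, pan B and mature genes, against 0.00 over all genes. From 72 to 120 h they were -0.18, -0.73 and -0.24, against 0.01, and the 11 called genes were 2 precursor genes (Vpreb3 and Cd24a), 6 pan B genes and 3 mature genes. Over that last interval Igll1 and Lef1 had steps of -0.15 ± 0.11 and -0.19 ± 0.12, neither called, while Cd79a fell by 2.01.

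**Figure D3:**
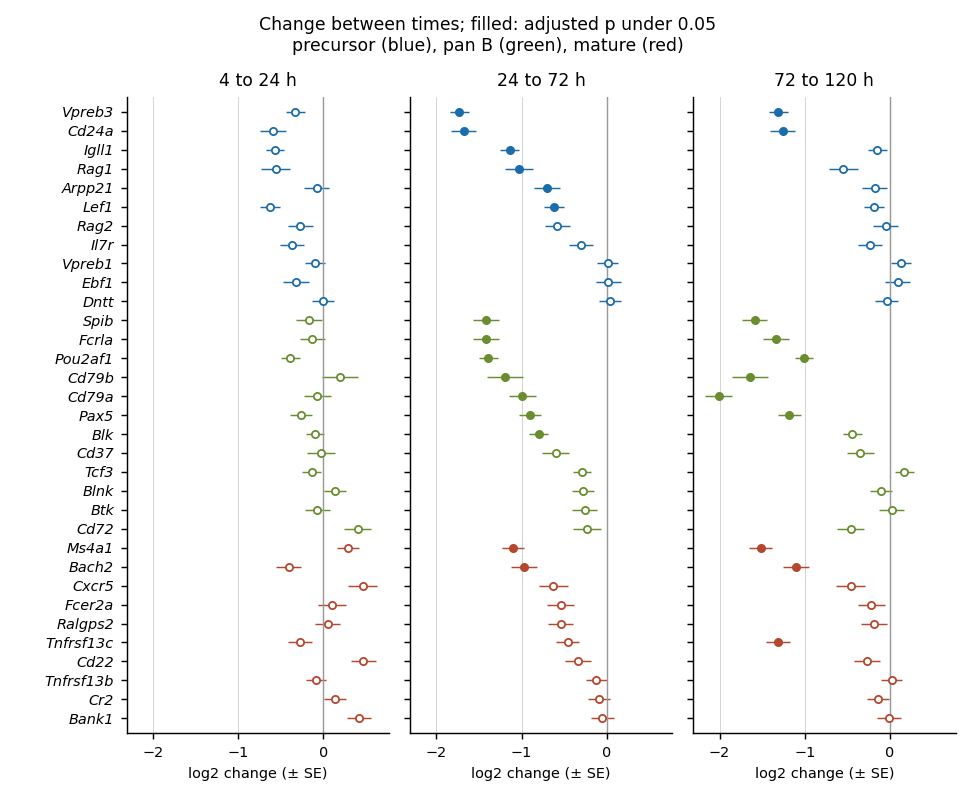
Change in log2 level of each member from 4 to 24, 24 to 72 and 72 to 120 h, estimated over both arms, with bars for the standard error, filled points for adjusted p under 0.05 and colours for the 3 groups. No point is filled in the first panel, 15 are in the middle panel and 11 in the last, where Vpreb3 and Cd24a are the only filled precursor genes.

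The mean level of the precursor genes minus that of the mature genes was also taken as 1 value per culture. It was 0.30, 0.22, -0.08, -0.39 and -0.15 at the 5 times in control cultures and 0.17, 0.10, -0.38, -0.50 and -0.39 with adiponectin. The value was lowest at 72 h in both arms. From 4 to 120 h it changed by -0.45 in control cultures and by -0.56 with adiponectin. Without Il7r, Lef1, Cd24a and Bach2, which other cells also use, but with Ebf1, which stromal cells also make, the changes were -0.37 and -0.56. With the median level of each group in place of its mean they were -0.10 and -0.19, while the median of the members' own changes was -0.93 for precursor and -0.47 for mature genes in control cultures and -1.21 and -0.61 with adiponectin. The value was lower with adiponectin in 5 of 5 pairs, by -0.13, -0.12, -0.30, -0.11 and -0.24, a mean of -0.18 ± 0.09 (SD, n = 5 pairs). It mixes probe sets of different brightness, so its sign has no meaning and only its changes are read.

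Adiponectin against control gave 1 called member. Cd72, a receptor of B cells that dampens receptor signals and is also found on some myeloid cells, read 11.67, 12.03, 11.96, 11.70 and 11.06 in control cultures and 12.29, 12.61, 12.80, 12.59 and 12.31 with adiponectin. The differences were 0.62, 0.58, 0.84, 0.89 and 1.25 at 4, 10, 24, 72 and 120 h, and the lowest adiponectin reading lay above the highest control reading. The mean difference was 0.84 ± 0.27 (SD, n = 5 pairs), or 1.79-fold, with a 95% confidence interval of 0.62 to 1.06 (limma adjusted p = 7.32e-04). Of all named genes, 2.05% were called higher with adiponectin and 0.371% lower, and 1.53% had ranges that stood apart upward. A count of 1 upward call among the 33 members was thus near the share over all genes. The call held without any 1 of the 5 pairs, at adjusted p-values of 0.00161 to 0.00690. It was lost without the time block (adjusted p = 0.0667) and with limma's moderation left out (adjusted p = 0.169).

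Over culture time Cd72 was called in no slope and no step. From 4 to 120 h it changed by -0.60 in control cultures and by 0.02 with adiponectin, while Cd79a changed by -3.28 and -2.86. The difference between its slopes was 0.12, with a 95% confidence interval of 0.03 to 0.21, and missed the threshold over all genes (limma adjusted p = 0.499). Of the 12 macrophage markers 1 was called higher with adiponectin, Fcgr1 at 0.98 ± 0.48 (SD, n = 5 pairs, limma adjusted p = 0.00363), and the list's median difference was -0.01. Their part in the Cd72 difference was not tested.

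The other 32 members had mean differences of at most 0.25 in size, and over all 33 the median was -0.02, against 0.01 over all named genes. By limma 0 members were lower. An unadjusted p under 0.05 was found for 6 of the 33, with Igll1, Rag2, Il7r and Blnk lower and Cd72 and Ms4a1 higher, and for 10.1% of all genes. Direction was shared by all 5 pairs in 6 members: Cd72 was higher in 5 of 5, where 6.32% of all genes were, and Vpreb3, Igll1, Rag2, Il7r and Blnk were lower in 5 of 5, where 4.40% were. Igll1 was lower by 0.23 ± 0.09 (SD, n = 5 pairs, limma adjusted p = 0.182), with a 95% confidence interval of -0.39 to -0.07. Il7r was lower by 0.24 ± 0.20 (adjusted p = 0.312, interval -0.43 to -0.05) and Blnk by 0.25 ± 0.16 (adjusted p = 0.209, interval -0.42 to -0.07). Vpreb3 was lower by 0.10 ± 0.06 and Rag2 by 0.22 ± 0.25. None of these 5 passed the threshold, and the intervals are not adjusted for the number of genes.

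On the mature side the largest differences were those of Ms4a1, 0.24 ± 0.19 (SD, n = 5 pairs, limma adjusted p = 0.303), Cxcr5, 0.23 ± 0.32 (adjusted p = 0.548), and Cd22, 0.21 ± 0.24 (adjusted p = 0.493). Each was higher with adiponectin in 4 of 5 pairs. Cxcr5 owed most of it to the 24 h pair, at 0.77. Cd79a was 0.20 ± 0.26 higher on average, from -0.17 at 10 h to 0.56 at 120 h. A change of the adiponectin difference with time was called for 0 of the 33 members and for 0% of all genes (limma, smallest adjusted p among members 0.499), while 3 members and 1959 of the 19938 genes had an unadjusted p under 0.05. With 1 pair at each time, no single time could be tested.

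**Figure D4:**
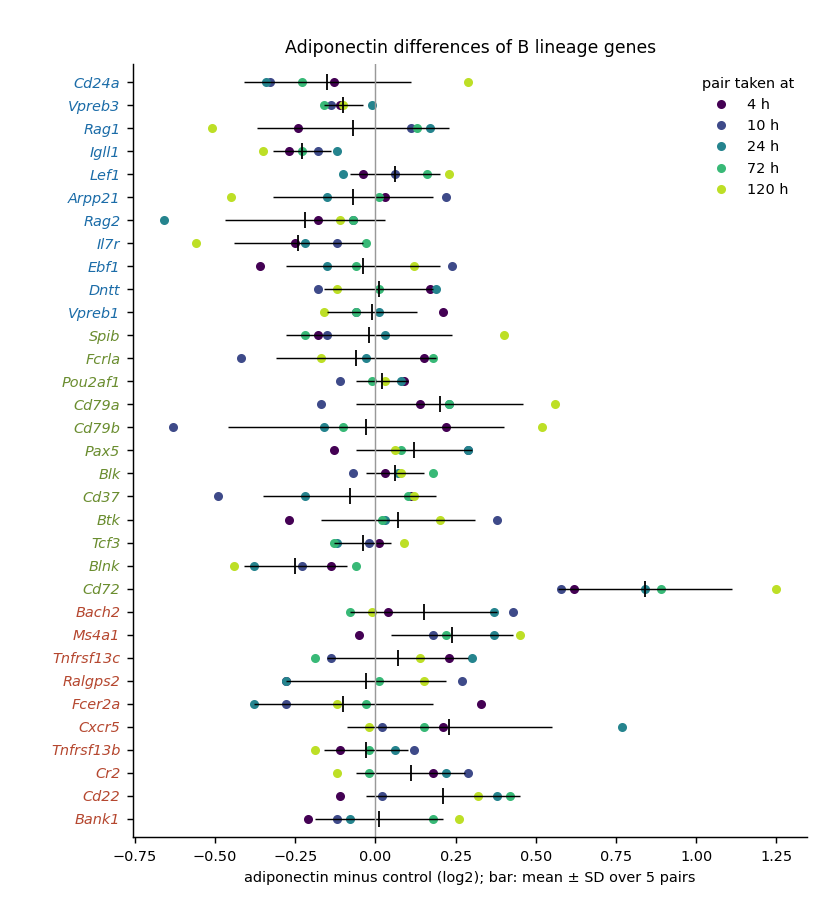
Adiponectin minus control log2 level for each member, 1 point per pair coloured by time, with the mean and SD over the 5 pairs as a bar. Cd72 has all its points between 0.58 and 1.25, and the mean of every other member lies within 0.25 of 0.

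Other genes of the B cell programme behaved like the members in part. Of 55 listed pathway genes 47 were measured. By slope in control cultures 10 fell and 1 rose, where 4.45% of all genes fell and 4.64% rose. The 4 steepest falls were those of Ikzf3 (Aiolos, a lymphoid zinc finger factor, -0.53), Irf4 (a factor of late precursors and plasma cells, -0.42), Siglecg (an inhibitory lectin, -0.36) and Bcl11a (a factor of early lymphoid cells, -0.34), at limma adjusted p-values of 0.0276, 0.00731, 0.0462 and 0.0221. All 4 lost that call when either the 72 or the 120 h pair was left out. From 24 to 72 h all 4 fell, by 0.96, 1.31, 1.08 and 1.02 (limma adjusted p = 6.45e-04, 3.05e-04, 6.97e-04 and 0.00184), a comparison that needs the 72 h pair. Leaving out a pair at neither end kept these calls and could not change the estimates. The riser was Gpr183, a receptor for oxysterols that guides B cells and is also made by myeloid cells, at 0.23 per doubling (adjusted p = 0.0217), a call lost without the 10, 72 or 120 h pair.

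With adiponectin 1 of the 47 was called higher and 1 lower, where 2.05% and 0.371% of all genes were. The count of upward calls was thus near the share over all genes. An unadjusted limma p under 0.05 was more frequent, in 16 of the 47 against 10.1% of all genes. In 5 of 5 pairs 12 were higher and 3 lower, where 6.32% and 4.40% of all genes were. Pik3ap1, the adaptor BCAP of B cells and macrophages, was higher by 0.47 ± 0.15 (SD, n = 5 pairs, limma adjusted p = 0.00731), in 5 of 5 pairs. Gpr183 was lower by 0.74 ± 0.28 (adjusted p = 0.00223), in 5 of 5 pairs. Both calls held without any 1 pair.

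Of the ligands that feed B cells, 7 of 8 were measured. None was called with adiponectin by limma, and 3 had an unadjusted p under 0.05, as did 10.1% of all genes. Tnfsf13b (BAFF), the survival factor read by Tnfrsf13c and Tnfrsf13b, read 10.55, 10.08, 9.59, 8.21 and 8.10 in control cultures and 9.79, 10.02, 9.29, 8.27 and 8.08 with adiponectin. It fell in both arms, with slopes of -0.54 ± 0.06 and -0.41 ± 0.06 (SE, limma adjusted p = 0.00394 and 0.00622). These calls were lost without the 120 h pair and, with adiponectin, without the 72 h pair as well. From 24 to 72 h Tnfsf13b fell by 1.20 ± 0.18 (limma adjusted p = 0.00301), an estimate that the other pairs cannot change.

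Cxcl12, Kitl and Cxcl13 went the other way from Tnfsf13b. Cxcl12, which retains precursors in marrow, read 10.37, 9.72, 10.82, 11.38 and 12.48 in control cultures and 9.70, 9.57, 9.91, 11.31 and 12.51 with adiponectin, and Kitl (stem cell factor) went from 9.59 to 11.67 and from 8.63 to 11.75. Both were highest at 120 h in each arm, and both rose from 24 to 72 h, by 0.98 ± 0.21 and 1.13 ± 0.22 (SE, limma adjusted p = 0.0228 and 0.0133). Cxcl13, the ligand of Cxcr5, went from 8.84 to 11.76 in control cultures and from 9.77 to 11.69 with adiponectin. It rose by slope in control cultures (0.67 ± 0.08, limma adjusted p = 0.00394) under all 5 omissions. Its slope with adiponectin was 0.38 ± 0.08 (limma adjusted p = 0.0172), a call lost without the 4, 72 or 120 h pair. Il7 read 5.99 at 4 h and 6.25 at 120 h in control cultures, with no called slope there (0.07 ± 0.04, adjusted p = 0.299). With adiponectin it rose by 0.21 ± 0.04 (adjusted p = 0.0166), a call lost without the 4, 72 or 120 h pair. Il7 lay below the lower quartile of named genes (7.04 to 7.23) on every array, so this is the rise of a dim probe set. Flt3l and Tslp had no called slope.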

How the data were processed

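RNA of 10 cultures was measured on Affymetrix whole-transcript arrays. The deposited values are log2 levels, 1 per probe set and array. The tools were RMA, Partek and Affymetrix Expression Console, per the submitters' processing notes, with no version or order in the sources used here. RMA's quantile step pulls arrays to a common distribution, so a shift shared by most transcripts would largely be removed.

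Of 35556 probe sets, 21789 had 1 gene symbol, 1621 several and 12146 none. A gene's probe set with the highest mean stood for it, and no filter on low values was applied, so all 33 measured members were tested. The symbols of all 33 matched RefSeq by Entrez ID. All tests were two-sided and used lmFit and eBayes of limma 3.58.1 (R 4.3.3). The adiponectin difference was fitted with time as a block (4 residual degrees of freedom). Slopes on log2 hours were fitted within each arm (6 residual degrees of freedom), and their difference with the block (3 residual degrees of freedom). The steps between times used the block fit; they, the E-box motif and Fcmr were added after the data were seen. The code was tested on simulated data. The pairing comes from the times in the labels: arrays of the same time correlated at 0.42 to 0.80 in their deviations from the group means over genes, and at most at 0.23 to 0.64 with the other arm at another time, which at 4 h (0.64 against 0.57) was the higher.

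The members and all gene lists were chosen with earlier results of these data known. The text names every measured member and ligand, other pathway genes called with adiponectin, and the 4 largest called slopes in each direction in control cultures. Of other lists, defining markers are named. Marker genes Lat, Cd8b1, Cd3d, Siglech, Ccr9, Pacsin1, Cox6a2, Lair1 and Fcgr1 stand beside the results they bear on. Alternatives covered scaling, filters, moderation, time scale and the omission of each pair.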

Additional observations from a re-analysis of the deposited data

Results flagged for a closer look

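Rag2 was the only 1 of 33 members whose differences between the arms held a pair far from the others. At 24 h its adiponectin culture was lower than the control culture, a difference of -0.66, while the other 4 pairs lay between -0.18 and -0.07. The gap to the nearest pair was 0.81 of the whole range, above Dixon's 95% critical value for 5 values. Chance gives such a gap in about 1 in 20 sets of values. A change of the Rag2 difference with hours was not called (limma adjusted p = 0.941).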

How the results depend on the processing

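Over all alternatives 2485 member values were recomputed. Called values never changed sign, 81 lost their call and 56 gained one; of 1820 uncalled both ways, 95 changed sign. The call of Cd72, the 1 member higher with adiponectin, became 0 without the replicate block and 0 without moderation; the latter leaves few degrees of freedom, and the cause was otherwise not tested. With the block replaced by log2 hours, Cd72 kept it (limma adjusted p = 0.0210). Counts of members that fell by slope ranged from 1 to 16 in control cultures and from 0 to 15 with adiponectin when 1 pair was left out, which leaves fewer arrays. Counts over all named genes then ranged from 17 to 1195 in control cultures and from 15 to 940 with adiponectin. With slopes on hours in place of log2 hours, 20 members fell in control cultures and 21 with adiponectin. Of all named genes, 1335 and 919 fell on that scale. The count that rose by slope with adiponectin was 1 (Bank1) with each array centred on its median and 1 with quantile normalization repeated. From 4 to 24 h, 2 members (Igll1 and Lef1) fell with median centring, 2 with only genes above the median level tested and 2 with a robust prior and an intensity trend. The change of precursor minus mature level from 4 to 120 h was -0.10 in control cultures and -0.19 with adiponectin with the median level of each group in place of its mean. The cause was not tested for these. Signal over background was not used here, so a small change of a dim probe set may be missed.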

Other observations

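Markers of antibody-secreting cells were set beside the B lineage genes. The mean level of 7 plasma cell markers stayed between 8.77 and 9.07 in control cultures and between 8.91 and 9.11 with adiponectin, and none of the 7 was called with adiponectin by limma, with 1 at an unadjusted p under 0.05. Jchain, the joining chain of IgM and IgA, read 6.63, 5.96, 6.57, 6.45 and 6.18 in control cultures and 6.64, 6.45, 6.46, 8.02 and 7.68 with adiponectin. Its 72 and 120 h adiponectin cultures stood above the other 8 arrays, and its mean difference of 0.69 ± 0.80 (SD, n = 5 pairs) was not called (limma adjusted p = 0.237). By slope in control cultures 2 of the 7 rose, Sdc1 (CD138) at 0.21 and Tnfrsf17 at 0.12 (limma adjusted p = 0.0141 and 0.0288), and 0 fell. From 24 to 72 h 2 fell, Mzb1 by 0.58 and Derl3 by 0.50 (adjusted p = 0.0275 and 0.0386), and 0 rose.

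Of 11 measured cell cycle genes, 4 fell by slope in control cultures and 2 with adiponectin, and their mean level went from 11.35 to 10.47 and from 11.20 to 10.74 between 4 and 120 h.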
